A study of Mus musculus with 9 samples.

Results

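Serine synthesis and folate one-carbon enzymes were examined as a set of 10 genes chosen by pathway role, out of 56620 genes and loci in the table, of which 13831 were abundant enough to test. The set held the 3 enzymes that make serine (Phgdh, Psat1, Psph), 3 cytosolic folate enzymes (Shmt1, Mthfd1, Aldh1l1) and 4 mitochondrial folate enzymes (Shmt2, Mthfd2, Mthfd1l, Aldh1l2). All 10 had values, and 9 had a mean of at least 1 FPKM (fragments per kilobase of transcript, relative to the fragments mapped in the library) over the libraries. Aldh1l1 did not. The set was also selected on measured values, since it was proposed with results of these libraries in view and for a comparison of the mitochondrial and cytosolic arms across all 3 conditions. The members' own differences are therefore given as a description with intervals and without p-values. Which members passed a threshold set over all genes is part of that description, and nothing is read from it.

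The cells were sold as mouse pulmonary microvascular endothelial cells, primary cells from the small vessels of the lung. They were cultured for 48 h in room air with 21% oxygen and no added protein (RA), in hyperoxia with 85% oxygen and no added protein (HO), or in 85% oxygen with 100 ng/ml recombinant WNT5A, a secreted signalling protein of the WNT family (HO-rWNT5A). Where the 3 groups are listed together, "with WNT5A" stands for HO-rWNT5A. Each condition had 3 libraries. The labels name no strain, age or separate cultures, so the spread between libraries may be technical.

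Cells make serine from a glycolytic intermediate. Phgdh catalyses the first and committed step, Psat1 the transamination that follows and Psph the last step. Serine hydroxymethyltransferases move a carbon from serine onto tetrahydrofolate and leave glycine. Mitochondria and cytosol hold parallel sets of enzymes that oxidise and release this carbon. In proliferating cells the mitochondrial set usually runs toward formate, which leaves the mitochondrion and feeds purine and thymidylate synthesis in the cytosol. Several genes of serine synthesis and of the mitochondrial set are known targets of the transcription factor ATF4.

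Mean levels of all 4 mitochondrial folate enzymes were below RA in both hyperoxic groups, and 2 of the 4 were past the threshold in HO and 3 of the 4 in HO-rWNT5A. Aldh1l2 was 55.7% lower in HO than in RA and Mthfd2 39.6% lower, both past it, while Shmt2 and Mthfd1l were 17.4% and 17.0% lower and short of it. The cytosolic Shmt1 was 22.4% lower in HO, about as much as those 2, and also short of it. Mthfd1 and the first serine enzyme Phgdh had means slightly above RA. Psat1 was 22.1% lower and past the threshold. Between HO-rWNT5A and HO all 9 tested members were short of it. The threshold is a limma adjusted p of 0.05 in the test over all genes. Of all tested genes 0.766% were past it and lower in HO vs RA, and 1.87% in HO-rWNT5A vs RA. The members were chosen with these contrasts in view, so nothing is read from the counts or from which members passed. Without RA replicate 2 or 3, 0 members were past it in HO vs RA.

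The 250 bases before the RefSeq start site (GRCm38.p6) are shown for Mthfd2 and Psat1, which were lower in hyperoxia, and for Mthfd1, which was not. Each runs 5′ to 3′ along the gene. Capitals mark CCAAT, the core of the site bound by NF-Y, on either strand.
Mthfd2, chr6:83317605-83317854, strand -: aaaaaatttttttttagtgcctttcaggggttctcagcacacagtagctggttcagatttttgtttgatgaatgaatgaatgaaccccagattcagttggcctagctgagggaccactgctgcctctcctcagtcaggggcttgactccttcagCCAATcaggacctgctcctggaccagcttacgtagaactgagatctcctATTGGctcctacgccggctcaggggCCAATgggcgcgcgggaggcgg
Psat1, chr19:15925060-15925309, strand -: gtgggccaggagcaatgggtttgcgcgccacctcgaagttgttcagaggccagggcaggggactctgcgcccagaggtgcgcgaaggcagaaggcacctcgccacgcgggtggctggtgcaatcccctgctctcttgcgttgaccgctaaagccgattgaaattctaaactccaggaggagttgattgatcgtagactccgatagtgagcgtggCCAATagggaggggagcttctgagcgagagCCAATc
Mthfd1, chr12:76254982-76255231, strand +: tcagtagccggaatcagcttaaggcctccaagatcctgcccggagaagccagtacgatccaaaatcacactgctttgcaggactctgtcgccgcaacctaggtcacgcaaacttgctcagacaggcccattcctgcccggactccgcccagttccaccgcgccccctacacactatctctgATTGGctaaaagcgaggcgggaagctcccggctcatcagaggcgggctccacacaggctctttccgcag

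The RefSeq table held 9 of the 10 members, all but Aldh1l2, which was the member lowered most in percent. Its window is not described. These 9 had 10 windows, since Psat1 had a further entry. CCAAT was found for 7 of the 9, against 33.9% of all 32851 promoter windows of this length. The members are counted by gene and the background by window, with no filter on expression, so the shares are not counted alike. Mthfd2 had 3 copies, starting 96, 47 and 22 bases before the start site. Psat1 had 2, at 36 and 6 bases, and Phgdh, whose level was not lower, also had 2, at 193 and 23 bases. Mthfd1 and Shmt1 had 1 each, at 69 and 47 bases, and Psph and Aldh1l1 had 2 each. The windows of Shmt2 and Mthfd1l, which belong to the mitochondrial arm like Mthfd2, had 0. At least 2 copies were found in 5 of the 9 members and in 10.1% of all windows. TGATGNAA, the core of the composite element that ATF4 binds with C/EBP partners, was found on neither strand in the windows of the 9 members, against 3.45% of all windows. These matches describe letters in a window and show no binding. A Psat1 entry that starts downstream, at the next RefSeq start, had no CCAAT.

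Most endothelial markers were near 0 in these libraries, which goes against the label. Of 12 pan-endothelial genes 3 reached a mean of 1 FPKM, and the junction protein Pecam1 was at 0.093 ± 0.035 FPKM (SD, n = 9). The VEGF receptor Flt1 was detected, at 37.9 ± 4.59 FPKM. Of 10 pericyte and smooth muscle markers 8 reached 5 FPKM, with a summed level of 3028 to 3389 FPKM in RA, 2507 to 3415 in HO and 2796 to 3219 with WNT5A. Much of that sum was Acta2, at 1574 ± 143.6 FPKM (SD, n = 9). The 8 fibroblast markers, of which 3 reached 5 FPKM, summed to 263 to 282, 213 to 265 and 191 to 263. The 7 epithelial markers, of which 5 reached 1 FPKM and 3 reached 5 FPKM, summed to 93.1 to 110, 86.2 to 116 and 87.4 to 102. The 12 endothelial ones summed to 50.5 to 56.3, 49.4 to 55.9 and 40.6 to 50.5. The 6 leukocyte markers stayed under 2 FPKM in sum. The part of these levels in the results was not tested, and in bulk RNA fewer cells of a type cannot be told apart from less RNA per cell. Depth was put at roughly 21500000 to 26500000 fragments per library, by an estimate that its own check did not support.

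The levels of the 10 genes spanned a wide range. Levels here are FPKM, which is per length, after median-ratio scaling between libraries. In RA the order was Phgdh, Psat1, Shmt2, Mthfd2, Psph, Mthfd1, Mthfd1l, Aldh1l2, Shmt1 and Aldh1l1, and no neighbours in that order had overlapping libraries. In HO Mthfd2 overlapped with Psph, and Aldh1l2 with Shmt1. In HO-rWNT5A Mthfd2, Psph and Mthfd1 overlapped with one another, as did Aldh1l2 and Shmt1.

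**Figure D1:**
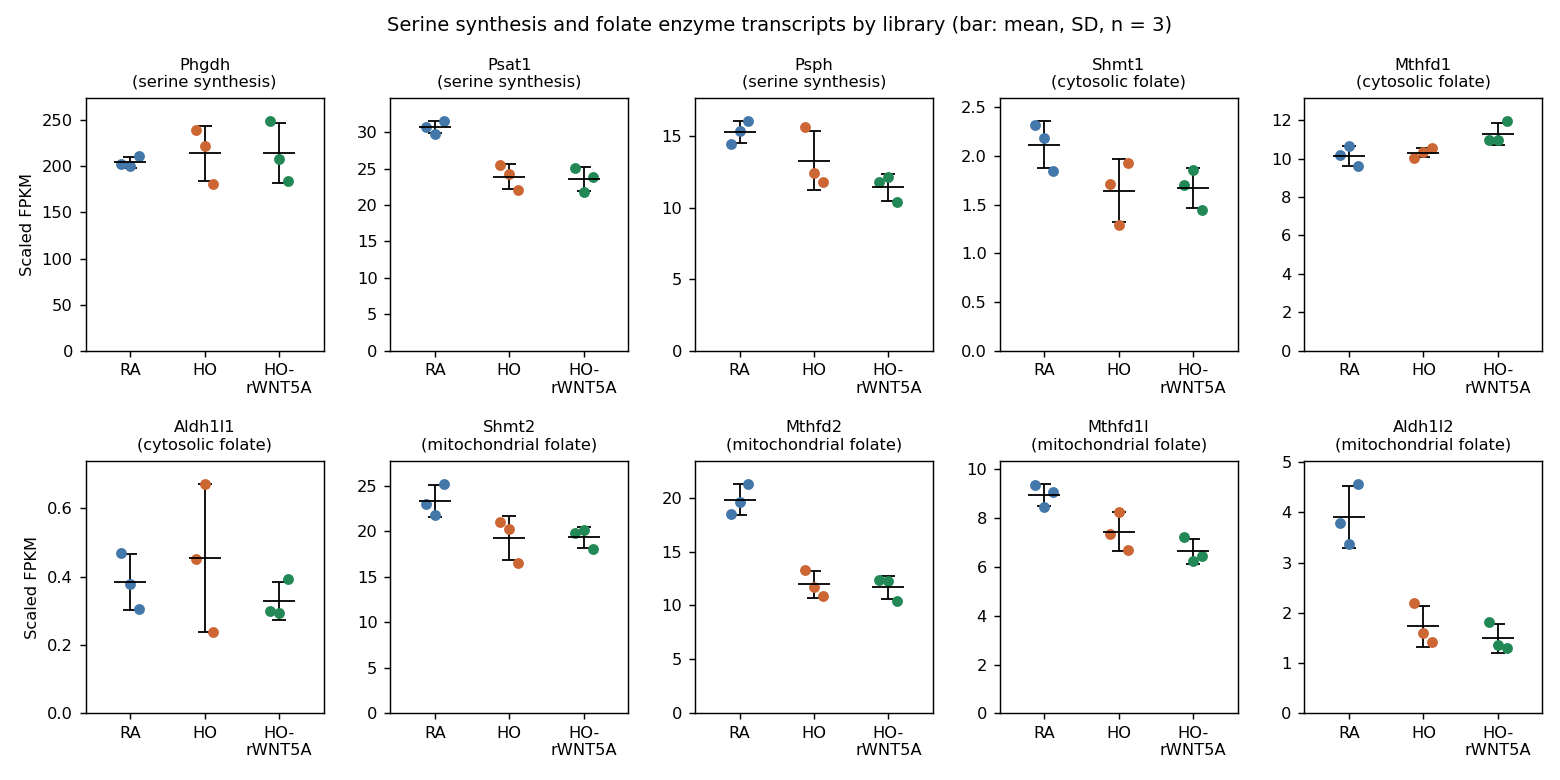
Scaled FPKM (vertical axes, each from 0) of the 10 enzymes in RA, HO and HO-rWNT5A; dots are libraries, bars the mean and SD of 3 libraries. Mthfd2 and Aldh1l2 sit at 18.5 to 21.3 and 3.37 to 4.57 FPKM in RA and below these ranges in all 6 hyperoxic libraries, while Mthfd1 stays between 9.60 and 11.96 FPKM.

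Among the serine synthesis enzymes, Phgdh (chromosome 3, 98313170 to 98339990) was more abundant than 98.9% of tested genes. It had 202, 200.1 and 211 FPKM in the RA libraries, 239.5, 222 and 181 in HO, and 249, 208.5 and 185 with WNT5A. The hyperoxic libraries lay on both sides of the RA range, and the log2 difference on the log2(FPKM + 1) scale was 0.06 ± 0.12 (SE, 95% interval -0.21 to 0.32) for HO vs RA. That estimate was -0.0063 on FPKM as deposited and -0.03 without HO replicate 1. Phgdh has 19 other genes in the annotation that share at least 200 bases at 90% identity or more with its main transcript, so its share of fragments is uncertain. Together these copies had 35.0 to 52.7 FPKM, or 16.3% to 17.6% of the sum with Phgdh. Phgdh with its copies had 245 ± 7.60 FPKM in RA, 257 ± 37.0 in HO and 259 ± 40.3 with WNT5A (SD, n = 3), which overlapped.

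Psat1 (chromosome 19, 15904678 to 15947337) had 30.8, 29.8 and 31.5 FPKM in RA, 25.5, 24.3 and 22.01 in HO, and 25.1, 21.8 and 23.8 with WNT5A. All 6 hyperoxic libraries lay below all 3 RA libraries. The log2 difference was -0.35 ± 0.07 (95% interval -0.50 to -0.20) for HO vs RA and -0.37 ± 0.07 for HO-rWNT5A vs RA. The ratio of Psat1 to Phgdh within a library, which no scaling of libraries can move, was 0.150 ± 0.0017 in RA, 0.112 ± 0.0082 in HO and 0.111 ± 0.015 with WNT5A (SD, n = 3), with no overlap between RA and the hyperoxic libraries.

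Psph (chromosome 5, 129765558 to 129787449) had 14.5, 15.3 and 16.0 FPKM in RA, 15.6, 12.4 and 11.8 in HO, and 11.8, 12.2 and 10.4 with WNT5A. HO replicate 1 lay within the RA range, while the HO-rWNT5A libraries lay below it. The log2 difference from RA was -0.20 ± 0.10 in HO and -0.39 ± 0.10 with WNT5A. Its transcripts did not move alike. Psph-201, the longer coding form, had 9.34 ± 0.435 FPKM in RA and 9.28 ± 1.27 in HO, while the shorter Psph-202 had 3.72 ± 0.217 and 1.82 ± 0.523 (SD, n = 3). Psph shares 452 bases with the chaperonin gene Cct6a on the opposite strand, which had a mean of 92.5 FPKM, and whether fragments were assigned by strand is not given in the sources used here. The level of Psph and of its transcripts is therefore uncertain.

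Among the cytosolic folate enzymes, Mthfd1 (chromosome 12, 76255298 to 76319803), the trifunctional enzyme that joins formate to tetrahydrofolate and interconverts the resulting forms, had 10.2, 10.6 and 9.60 FPKM in RA, 10.1, 10.3 and 10.6 in HO, and 10.98, 10.9 and 11.96 with WNT5A. The HO libraries lay inside the RA range, and the HO-rWNT5A libraries lay above both. The log2 difference was 0.02 ± 0.06 (95% interval -0.11 to 0.16) for HO vs RA and 0.14 ± 0.06 for HO-rWNT5A vs RA. The first estimate was -0.03 on FPKM as deposited, -0.0073 with libraries scaled to equal totals and -0.013 without RA replicate 3.

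Shmt1 (chromosome 11, 60788104 to 60811718), the cytosolic serine hydroxymethyltransferase, had 2.32, 2.18 and 1.85 FPKM in RA, 1.71, 1.29 and 1.92 in HO, and 1.70, 1.85 and 1.45 with WNT5A. The RA range overlapped with both others, with log2 differences from RA of -0.24 ± 0.11 in HO and -0.22 ± 0.11 with WNT5A. By the unsupported depth estimate it had roughly 88 to 180 fragments per library. Counting error is larger than for the other tested members. Aldh1l1 (chromosome 6, 90486427 to 90600203), the cytosolic 10-formyltetrahydrofolate dehydrogenase, had 0.305 to 0.470 FPKM in RA, 0.238 to 0.672 in HO and 0.294 to 0.392 with WNT5A, too little to test.

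All 4 mitochondrial enzymes had lower libraries in HO than in RA with no overlap, as did Psat1. Of all tested genes 21.4% did not overlap in HO vs RA, 10.1% lower and 11.3% higher, a contrast the choice of members already used. Shmt2 (chromosome 10, 127517123 to 127522444), the mitochondrial serine hydroxymethyltransferase, had 23.0, 21.8 and 25.3 FPKM in RA, 21.0, 20.3 and 16.5 in HO, and 19.8, 20.2 and 18.1 with WNT5A. The gap between the lowest RA and the highest HO library was small. The log2 difference of Shmt2 was -0.27 ± 0.09 in HO and -0.26 ± 0.09 with WNT5A. The fall was uneven across transcripts. The main coding form Shmt2-201 had 14.8 ± 1.64 FPKM in RA, 14.4 ± 2.99 in HO and 12.3 ± 3.20 with WNT5A. These overlapped. Another coding form had 4.99 ± 1.78, 2.35 ± 0.336 and 3.84 ± 2.67 (SD, n = 3). With protein-coding transcripts alone the HO vs RA estimate of Shmt2 was -0.24. How fragments were divided between these transcripts was not tested.

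Mthfd2 (chromosome 6, 83305691 to 83325908), the mitochondrial methylenetetrahydrofolate dehydrogenase and cyclohydrolase, had 18.5, 19.6 and 21.3 FPKM in RA. It had 13.3, 11.7 and 10.9 in HO, and 12.3, 12.2 and 10.4 with WNT5A. The 3 RA libraries stood well above the other 6, and HO and HO-rWNT5A overlapped. The log2 difference from RA was -0.68 ± 0.09 (95% interval -0.88 to -0.49) in HO and -0.72 ± 0.09 (-0.91 to -0.52) in HO-rWNT5A. Between 81.4% and 90.3% of its FPKM was in the coding transcript Mthfd2-201.

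Mthfd1l (chromosome 10, 3973118 to 4167081), the mitochondrial formyltetrahydrofolate synthetase that releases formate, had 9.33, 8.45 and 9.07 FPKM in RA, 7.36, 8.26 and 6.68 in HO, and 7.21, 6.26 and 6.43 with WNT5A. HO replicate 2 was close to the lowest RA library. The log2 difference from RA was -0.24 ± 0.08 in HO and -0.38 ± 0.08 with WNT5A. Its 2 coding transcripts traded places between libraries, with 31.8% to 78.7% of the FPKM in Mthfd1l-201, and fragments of bases that both share can be given to either.

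Aldh1l2 (chromosome 10, 83487450 to 83534140), the mitochondrial 10-formyltetrahydrofolate dehydrogenase, which makes NADPH as it releases carbon dioxide, had 3.79, 3.37 and 4.57 FPKM in RA. It had 2.19, 1.59 and 1.41 in HO, and 1.82, 1.36 and 1.30 with WNT5A. Its lowest RA library was above all hyperoxic ones. The log2 difference was -0.85 ± 0.13 (95% interval -1.14 to -0.55) in HO and -0.98 ± 0.13 (-1.27 to -0.68) in HO-rWNT5A. These were the largest estimates among the 9 tested members at a pseudocount of 1. With a pseudocount of 5, Mthfd2 had the larger ones, at -0.55 and -0.57 against -0.40 and -0.45 for Aldh1l2. Aldh1l2 shares 1056 bases with D10Wsu102e on the opposite strand, which had a mean of 0.612 FPKM.

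**Figure D2:**
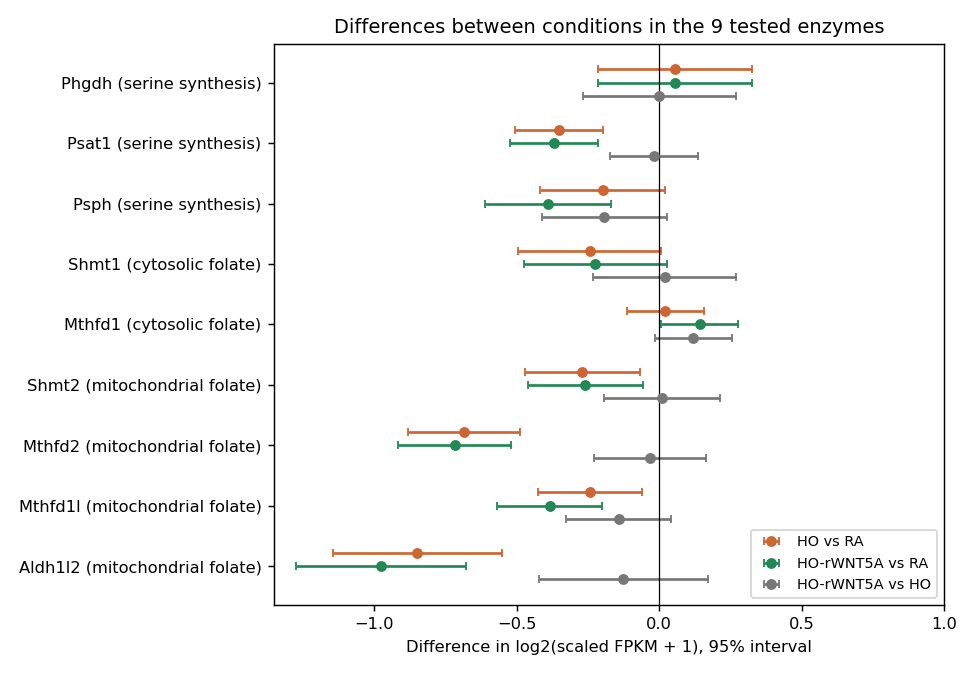
Difference in log2(scaled FPKM + 1) (horizontal axis) of the 9 tested enzymes with 95% intervals from the fit over all genes, for the 3 comparisons. Mthfd2 and Aldh1l2 lie farthest to the left against RA, at -0.68 and -0.85 in HO, and the intervals of HO-rWNT5A vs HO include 0 for all 9.

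In the fit over all genes, 3 of the 9 tested members were past the threshold in HO vs RA, all lower (Psat1, Mthfd2 and Aldh1l2), where 1.97% of all tested genes were past it, 1.21% higher and 0.766% lower. In HO-rWNT5A vs RA there were 4, all lower, with Mthfd1l in addition, where 4.26% of genes were past the threshold, 2.39% higher and 1.87% lower. The contrasts were used in choosing the members, so nothing is read from these shares. Without overlap between libraries, 6 members were lower and 1, Mthfd1, was higher in HO-rWNT5A vs RA, where 32.8% of tested genes did not overlap, 16.5% lower and 16.3% higher. These comparisons share the RA libraries. The HO vs RA count was 1, 0 and 0 without RA replicates 1, 2 and 3 and 1 without HO replicate 2. The HO-rWNT5A vs RA count was 2 without any 1 of the RA libraries or without HO-rWNT5A replicate 2 or 3, and 6 without HO replicate 3. The estimates of Psat1, Mthfd2 and Aldh1l2 against RA were below 0 in every alternative that was run, and 7 of the 9 tested members had such estimates in both comparisons with RA.

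The arms were also set against each other within libraries. The summed level of the 4 mitochondrial enzymes was 56.0 ± 3.66 FPKM in RA, 40.4 ± 4.40 in HO and 39.1 ± 2.56 with WNT5A. The 3 cytosolic enzymes summed to 12.6 ± 0.778, 12.4 ± 0.273 and 13.3 ± 0.441 (SD, n = 3 for both sums). Most of the cytosolic sum was Mthfd1, with means of 10.1, 10.3 and 11.3 FPKM, while Shmt1 had 2.12, 1.64 and 1.67. The mitochondrial share of both sums was 80.8%, 80.1% and 83.7% in the RA libraries, 78.2%, 77.3% and 73.6% in HO, and 76.0%, 75.4% and 72.4% with WNT5A. All hyperoxic libraries lay below all RA libraries. As a mean of log2(FPKM + 1) values, the mitochondrial minus cytosolic difference was 1.79 ± 0.17 in RA, 1.33 ± 0.13 in HO and 1.25 ± 0.11 with WNT5A. The cytosolic mean gives Aldh1l1, which was too low to test, the same weight as Shmt1 and Mthfd1.

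The arms did not part at every step. The ratio of Mthfd2 to Mthfd1 was 1.82, 1.84 and 2.22 in RA, 1.33, 1.14 and 1.03 in HO and 1.12, 1.12 and 0.874 with WNT5A, so that RA did not overlap with the others. The ratio of Mthfd1l to Mthfd1 was 0.885 ± 0.080 in RA and 0.722 ± 0.084 in HO, with RA replicate 2 just below HO replicate 2, and 0.588 ± 0.061 with WNT5A. The ratio of Shmt2 to Shmt1 was 11.2 ± 2.14, 12.2 ± 3.598 and 11.7 ± 0.808 (SD, n = 3), which overlapped in full. The ratio of Aldh1l2 to Aldh1l1 was 10.65 ± 3.775 in RA, 4.38 ± 1.82 in HO and 4.67 ± 1.38 with WNT5A. RA did not overlap with the others there, but the ratio rests on Aldh1l1, which was too low to test.

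**Figure D3:**
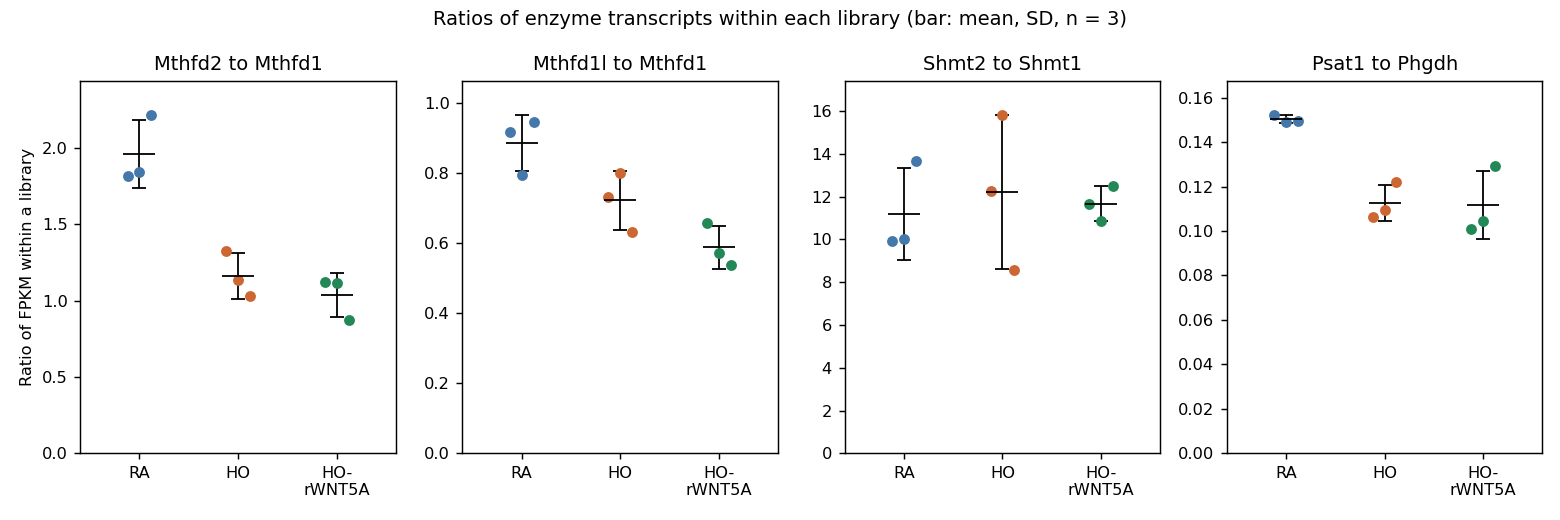
Ratio of the FPKM of 2 enzymes within a library (vertical axes, each from 0), with dots for libraries and bars for the mean and SD of 3 libraries. Mthfd2 to Mthfd1 and Psat1 to Phgdh are lower in every hyperoxic library than in RA, and Shmt2 to Shmt1 overlaps, with means of 11.2, 12.2 and 11.7.

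Adding WNT5A under hyperoxia was the other comparison. In HO-rWNT5A vs HO 0 of the 9 tested members were past the limma threshold, where 0.00723% of all genes were. At an unadjusted p under 0.05 there were 0 of the 9, where 9.2% of all genes (1272) were. With 9 members, 0 is near that share. The estimates were -0.03 (95% interval -0.23 to 0.16) for Mthfd2, -0.13 (-0.42 to 0.17) for Aldh1l2 and -0.02 (-0.17 to 0.14) for Psat1. Psph had -0.19 (-0.41 to 0.03) and Mthfd1l -0.14 (-0.32 to 0.04). Mthfd1 had 0.12 (-0.02 to 0.26) and was the 1 member whose libraries did not overlap, where 13.0% of tested genes did not, 6.27% higher and 6.70% lower. These intervals show how far a difference could lie, not that the groups were alike.

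HO replicate 3 had the lowest HO value for Phgdh, Psat1, Psph, Shmt2, Mthfd2, Mthfd1l and Aldh1l2. It also had 20.2% of its FPKM in small structural and mitochondrial noncoding RNA, against 27.5% and 26.6% in HO replicates 1 and 2 and 21.5% to 25.1% in RA, and 7.09% in retained-intron transcripts, against 5.49% and 5.26% in those and 6.33% to 6.58% in RA. Their part in the result was not tested. Without that library the HO vs RA estimates were -0.62 for Mthfd2, -0.76 for Aldh1l2 and -0.29 for Psat1, and 3 members were past the threshold. Shmt2 was at -0.17 without it, Psph at -0.12 and Mthfd1l at -0.18, so the estimates of Shmt2 and Psph moved by over 1.5 times. Phgdh was at 0.17 and Shmt1 at -0.32.

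Of 50 other genes of serine, glycine and folate metabolism, 43 were tested and 0 passed in HO vs RA (limma), with 6 at an unadjusted p under 0.05, where 18.1% of all tested genes were. Their median log2 difference was -0.02, against -0.004 for all genes. The tested members had -0.24, but they were chosen with this contrast in view, so nothing is read from that gap. In HO-rWNT5A vs RA 3 of the 43 fell and 0 rose, where 1.87% of all tested genes were called lower and 2.39% higher. In HO-rWNT5A vs HO 0 passed, with 3 at an unadjusted p under 0.05, where 9.2% of all tested genes were. The list was drawn up with earlier results of these libraries known.

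The 3 that fell in HO-rWNT5A vs RA were Mthfd2l, Slc1a5 and Cth. Mthfd2l, the mitochondrial paralog of Mthfd2, had 8.78 ± 0.199 FPKM in RA, 6.74 ± 0.863 in HO and 6.44 ± 0.494 with WNT5A (SD, n = 3), a log2 difference of -0.40 ± 0.09 (limma adjusted p = 0.0331) from RA in HO-rWNT5A and -0.34 ± 0.09 (adjusted p = 0.0723) in HO. Slc1a5, a transporter of glutamine and other neutral amino acids, had -0.37 ± 0.08 (adjusted p = 0.0314). Cth, which makes cysteine from cystathionine, had -0.65 ± 0.15 (adjusted p = 0.0417). The count of 3 was 0 without any 1 of the HO-rWNT5A libraries and 0, 1 and 0 without RA replicates 1, 2 and 3.

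Genes that handle folate gave no call in the 11 tested. Tyms, thymidylate synthase, had a log2 difference of -0.05 ± 0.09 in HO vs RA. Slc46a1, the proton-coupled folate transporter, had 0.09 ± 0.09 in HO vs RA, and Ggh, which trims the glutamate tail of folates, had -0.16 ± 0.09 in HO-rWNT5A vs RA. Tyms had -0.13 ± 0.09 in HO-rWNT5A vs HO and -0.18 ± 0.09 in HO-rWNT5A vs RA. The mitochondrial folate carrier Slc25a32, the mitochondrial serine carrier Sfxn1 and the glycine decarboxylase Gldc had 0.06 ± 0.07, -0.04 ± 0.07 and 0.11 ± 0.10 in HO vs RA. In HO-rWNT5A vs HO, Sfxn1 had -0.15 ± 0.07 and the sarcosine dehydrogenase Sardh -0.21 ± 0.09, neither past the threshold. Sfxn3, a relative of Sfxn1, had 0.12 ± 0.07 in HO vs RA, and Sfxn1 had -0.19 ± 0.07 in HO-rWNT5A vs RA.

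The 6 purine synthesis genes, from a pathway in which Gart and Atic take formyl groups from folate, had a median of -0.12 in HO vs RA with 5 of 6 estimates below 0. The bifunctional enzyme Paics had -0.22 ± 0.08 (limma adjusted p = 0.193) and the amidotransferase Ppat -0.14 ± 0.06 (adjusted p = 0.270). In HO-rWNT5A vs HO, Ppat had 0.06 ± 0.06 and Atic -0.07 ± 0.06. In HO-rWNT5A vs RA, Paics had -0.18 ± 0.08 and Adsl, adenylosuccinate lyase, -0.10 ± 0.07. In the methionine cycle, Ahcy, which splits S-adenosylhomocysteine, had 0.17 ± 0.09 (adjusted p = 0.316) in HO vs RA and 0.16 ± 0.09 in HO-rWNT5A vs RA. Cth had -0.38 ± 0.15 (adjusted p = 0.211) in HO vs RA and -0.26 ± 0.15 in HO-rWNT5A vs HO. Mat2a, which makes S-adenosylmethionine, had 0.10 ± 0.07 in HO-rWNT5A vs HO. Among genes of serine uptake and use, the serine and alanine transporter Slc1a4 had -0.28 ± 0.07 (adjusted p = 0.0911) and Sptlc2, a subunit of serine palmitoyltransferase, -0.11 ± 0.07 (adjusted p = 0.482) in HO vs RA. Slc1a4 had -0.29 ± 0.07 (adjusted p = 0.0584) in HO-rWNT5A vs RA. In HO-rWNT5A vs HO, Slc1a5 had -0.28 ± 0.08 (adjusted p = 0.500) and Sptlc1, the partner of Sptlc2, -0.08 ± 0.07.

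**Figure D4:**
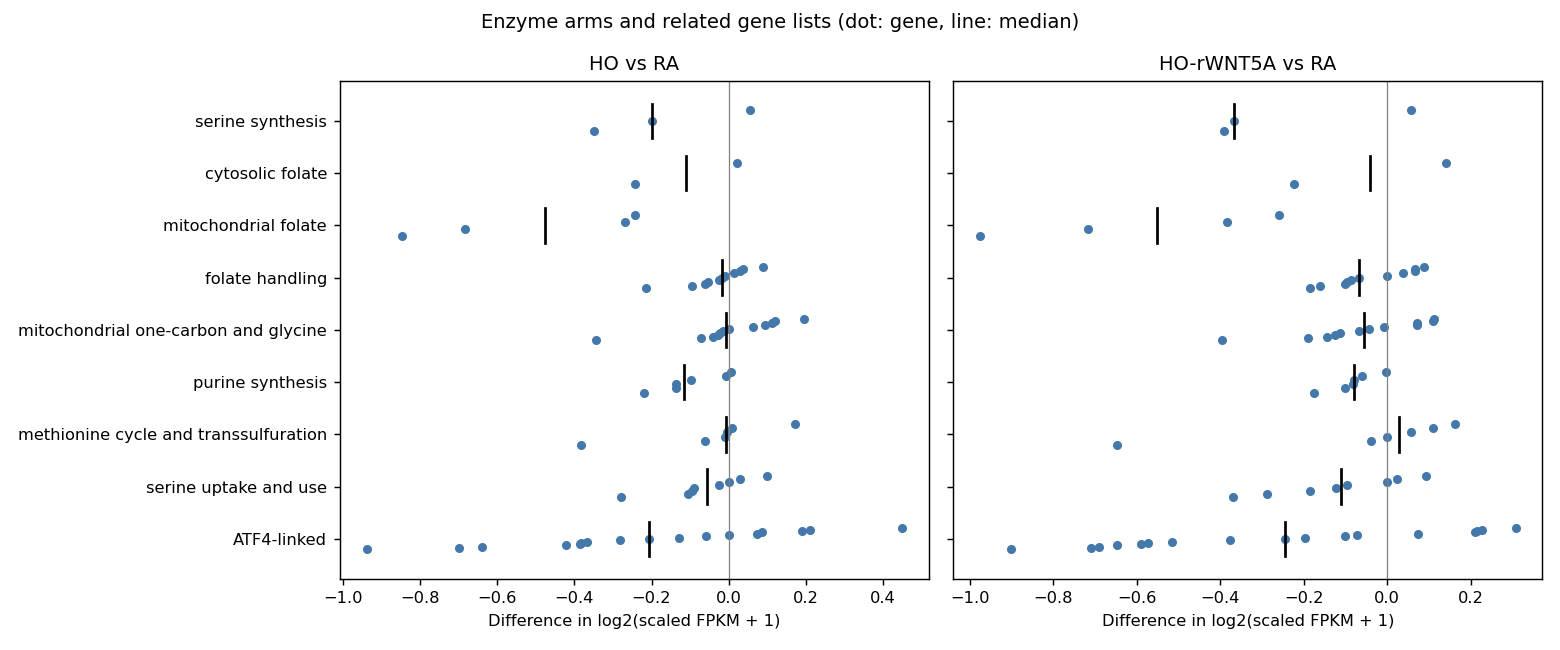
Difference in log2(scaled FPKM + 1) from RA (horizontal axes) for each tested gene (dots) by arm or list, with a line at the median, for HO (left) and HO-rWNT5A (right). The 4 mitochondrial folate enzymes all lie below 0, and the folate handling genes centre on -0.02 and -0.07.

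Of 18 genes linked to ATF4, a list known beforehand to hold genes that were low in these libraries, 17 were tested. In HO vs RA 2 fell and 0 rose, where 0.766% of all tested genes were called lower and 1.21% higher. Of the 17 estimates 11 were below 0, with a median log2 difference of -0.20. There were 6 that fell in HO-rWNT5A vs RA (Asns, Trib3, Slc7a5, Gpt2, Pck2 and Cth) and 0 that rose, where 1.87% of all tested genes were called lower. Trib3, a pseudokinase induced by stress, had -0.70 ± 0.10 (limma adjusted p = 0.0153) in HO vs RA and Slc7a5, a large neutral amino acid transporter, -0.39 ± 0.08 (adjusted p = 0.0349). Asns, asparagine synthetase, had -0.37 ± 0.08 (adjusted p = 0.0561), and Chac1, which degrades glutathione, -0.64 ± 0.15 (adjusted p = 0.060). Atf4 itself had 0.21 ± 0.07 (adjusted p = 0.152). Cebpb, a C/EBP transcription factor, and Sesn2, a stress-induced regulator of growth signalling, also had estimates above 0, at 0.45 ± 0.12 (adjusted p = 0.0942) and 0.19 ± 0.06 (adjusted p = 0.116). These last 2 were named after their values were seen.

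The genes whose levels over the 9 libraries were most like those of Mthfd2 were Lsp1 (Pearson r = 0.994), Plekhf1 (0.975), Hspa5 (0.97), Mid1ip1 (0.97) and Pomgnt1 (0.969), out of 7612 compared. Psat1 ranked 25, Shmt2 89, Psph 166 and Mthfd1l 200, while Phgdh (r = 0.058) and Mthfd1 (r = -0.637) were unlike it. For Aldh1l2 they were Yars (0.98), Mthfd2 (0.977), Aldh18a1 (0.977), Hist1h1b (0.977) and Plekhf1 (0.976), with Psat1 at rank 7. With 9 libraries in 3 groups, any gene that differs between RA and hyperoxia scores high, and the libraries share depth and scaling.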

How the data were processed

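RNA was measured in 9 libraries, 3 per condition. Fragments were read as 150-base pairs, trimmed with Skewer 0.2.2, aligned with STAR 2.5.3a, and assembled with StringTie 1.3.1, per the labels' protocols. The submitters' processing notes name the builds hg38 and mm10 with no roles. The authors deposited FPKM for 143043 transcripts. Of 142351 Ensembl transcripts 99.36% were found in GENCODE M21 (GRCm38), which gave names and coordinates.

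FPKM was summed per gene and scaled by the median ratio over tested genes (deposited mean of at least 1 FPKM). Tests used log2(scaled FPKM + 1), which understates changes of low genes, in limma 3.58.1 (R 4.3.3) with all 9 libraries, a variance trend and Benjamini-Hochberg adjustment over 13831 genes, two-sided. The code of the fit was also run on simulated data with independent normal noise. Such noise has no structure shared within a library, so this does not test the fit on these libraries. Depth is a rough estimate from the commonest product of FPKM and length among genes with 1 transcript, shared by 16 to 60 genes per library. Only 3.44% to 4.46% of values were whole multiples within 0.02. Evenly spread values would give about as many, so this check does not support the depths, and counts cannot be recovered. Copies were searched with blastn 2.17.0. Tables and plots used Python 3.11.15 and pandas 2.3.3.

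The members and lists were chosen with earlier results of these data known. The text names all members, other pathway genes past the threshold, the 2 with the smallest p per group and comparison, and Mthfd2l, Tyms, Slc25a32, Sfxn1 and Gldc. Some genes that this rule names are not reported here. Of the ATF4-linked list it names Atf4 and the 4 with the smallest p in HO vs RA, and for likeness the 5 highest r among protein-coding genes averaging 5 FPKM or more. Alternatives changed the pseudocount, filter, scaling, variance model, samples, block and transcripts. Scaling to the protein-coding total was added after seeing the data.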

Additional observations from a re-analysis of the deposited data

How the results depend on the processing

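The 273 genes past the threshold in HO vs RA became 69 with no filter on low values, 56 with libraries scaled to equal totals, 67 with the 2 groups alone, 116 with the replicate block and 3 to 707 with 1 library left out. The 1 gene in HO-rWNT5A vs HO became 0 with no filter and with protein-coding transcripts alone, 3 with the 2 groups alone, 2 with the block and 1 to 27 with 1 library left out. The 589 in HO-rWNT5A vs RA became 222, 257 and 1330 with no filter, equal totals and the 2 groups alone, and 124 to 1008 with 1 library left out. The split in HO vs RA was 167 higher and 106 lower, against 103 and 179 on FPKM as deposited, 26 and 30 with equal totals and 105 and 96 on the protein-coding total. In HO-rWNT5A vs RA it was 331 and 258, against 209 and 615 as deposited and 93 and 164 with equal totals.

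With no filter 1 member was past the threshold in HO vs RA and 2 in HO-rWNT5A vs RA. With 1 library left out these counts were 0 to 3 and 2 to 6. In HO-rWNT5A vs HO the count was 0 in all 22 alternatives. Other pathway genes past the threshold were 1 in HO vs RA on FPKM as deposited, and 0 to 1 with 1 library left out. In HO-rWNT5A vs RA they were 0 with no filter, 5 as deposited, 1 with equal totals, 1 with the block and 0 to 4 with 1 library left out. Psat1 in HO vs RA no longer passed in 12 of 22 alternatives, Aldh1l2 in 5 of 21 and Mthfd2 in 2 of 22. In HO-rWNT5A vs RA Mthfd2 and Aldh1l2 passed in all 22 and 21, Mthfd1l no longer passed in 7 of 22 and Psat1 in 6 of 22, and Psph and Shmt2, short of the threshold, passed it in 8 and 2 alternatives of 22. The mitochondrial minus cytosolic difference from RA was -0.31 in HO and -0.38 in HO-rWNT5A with a pseudocount of 5, against -0.46 and -0.54. The causes were not tested. The replicate numbers are not said to mark pairs, and same-numbered libraries had residual correlations of -0.118 to 0.28, so the block (2 and 3 members past the threshold against RA) is given once. FPKM limits what low genes such as Shmt1 can show.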
